A study of Homo sapiens with 9 samples.

Results

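The machinery that lets a megakaryocyte contract, shape itself and hold on to its surroundings was followed through 10 of its genes in RNA-seq of SET2 cells with and without *DYRK1A* knockout (KO). The 10 genes are *MYLK*, *MYL9*, *MYH9*, *TPM4*, *TUBB1*, *ACTN1*, *FLNA*, *TLN1*, *VCL* and *ZYX*, taken by name for their known roles, out of 60662 genes in the deposited table. They were chosen with earlier results of these data known, so their counts and medians beside those of all genes only describe them. SET2 is a *JAK2* mutant megakaryoblastic leukemia line, listed as acute myeloid leukemia after a myeloproliferative neoplasm, and the cells were untreated. WT means parental SET2 cells (n = 3 libraries). KO means 2 clones named 11H1 and 14B5 (n = 3 libraries for each), each founded by 1 sorted cell after delivery of Cas9 with a guide RNA against *DYRK1A* and kept because they carried out-of-frame indels only, so the libraries of a clone share a founder cell and no clone of unedited SET2 cells was sequenced. A difference between a clone and WT can therefore not be told apart from a difference that the founder cell already had, and nothing in the labels says whether the libraries of a group came from separate cultures, so p values measure the spread between these libraries only.

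A megakaryocyte uses nonmuscle myosin II to pull on actin filaments. Myosin light chain kinase phosphorylates the regulatory light chain, which switches on the myosin heavy chain, and tropomyosin lies along the filament and sets which myosins reach it. Alpha-actinin and filamin crosslink the filaments, and talin, vinculin and zyxin tie them to integrins at contacts with the matrix. Beta1-tubulin, made almost exclusively in this lineage, builds the microtubule coil of the platelet. In people, variants of several of these genes cause inherited disorders of large or few platelets. Many genes of the actin system are known targets of serum response factor (SRF) and its cofactors of the myocardin-related family, which bind a DNA element called the CArG box, while *TUBB1* is known as a target of the megakaryocyte factor NF-E2.

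The levels given are CPM, the counts a library would hold if all libraries were of 1 common size, with sizes adjusted by edgeR's TMM method, and log2FC is the log2 ratio of the first group to the second from edgeR's quasi-likelihood fit over all genes tested, with Benjamini-Hochberg adjusted p values and a threshold of 0.05. Libraries held 32347779 to 60272245 expected counts, the 10 genes took 0.340% to 0.441% of them, and 3 counts corresponded to 0.0502 to 0.0914 CPM, a limit that covers counting error only. The share of counts on mitochondrial genes was 3.54% to 6.03% in WT, 7.23% to 7.39% in 11H1 and 3.30% to 3.92% in 14B5, and its part in the differences below was not tested. *DYRK1A* RNA itself was at 196 to 219 CPM in WT and 174 to 192 CPM in KO, with a log2FC of −0.13 in KO versus WT (adjusted p = 0.126, edgeR), −0.09 in 11H1 (adjusted p = 0.131) and −0.17 in 14B5 (adjusted p = 0.0278), a level that says nothing of whether the RNA could still be read in frame.

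Across the 10 genes, *MYLK* and *TUBB1* were much lower in both clones, *VCL* and *ZYX* were moderately lower in both, *MYH9* and *TPM4* moved in opposite directions in the 2 clones, and *MYL9* was hardly detected in any library. In KO versus WT, 9 of the 10 genes had enough counts to be tested, none was higher and 4 were lower (*MYLK*, *TUBB1*, *VCL* and *ZYX*), where 32.0% of the 17080 genes tested passed the threshold, 14.3% higher and 17.7% lower. The median log2FC of the 9 was −0.14, and that of all genes tested was 0.02. The same 4 genes were those whose KO and WT libraries did not overlap, as did not 36.6% of all genes tested. Each clone alone gave more calls, for these genes as for all genes. In 11H1 versus WT 2 of the 9 were higher and 6 lower, against 31.8% higher and 32.8% lower among 16675 genes (64.6% in all), with a median log2FC of −0.21 for the 9 and −0.01 for all genes. In 14B5 versus WT 1 was higher and 6 lower, against 24.9% higher and 28.7% lower among 16537 genes (53.5% in all), with medians of −0.42 and −0.01. Both clones were compared with the same WT libraries. Of the 9 genes, 4 were lower in both clones and 2 were called in opposite directions, where of 16339 genes tested in both clones 3135 were lower in both, 2298 higher in both and 947 opposite.

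**Figure D1:**
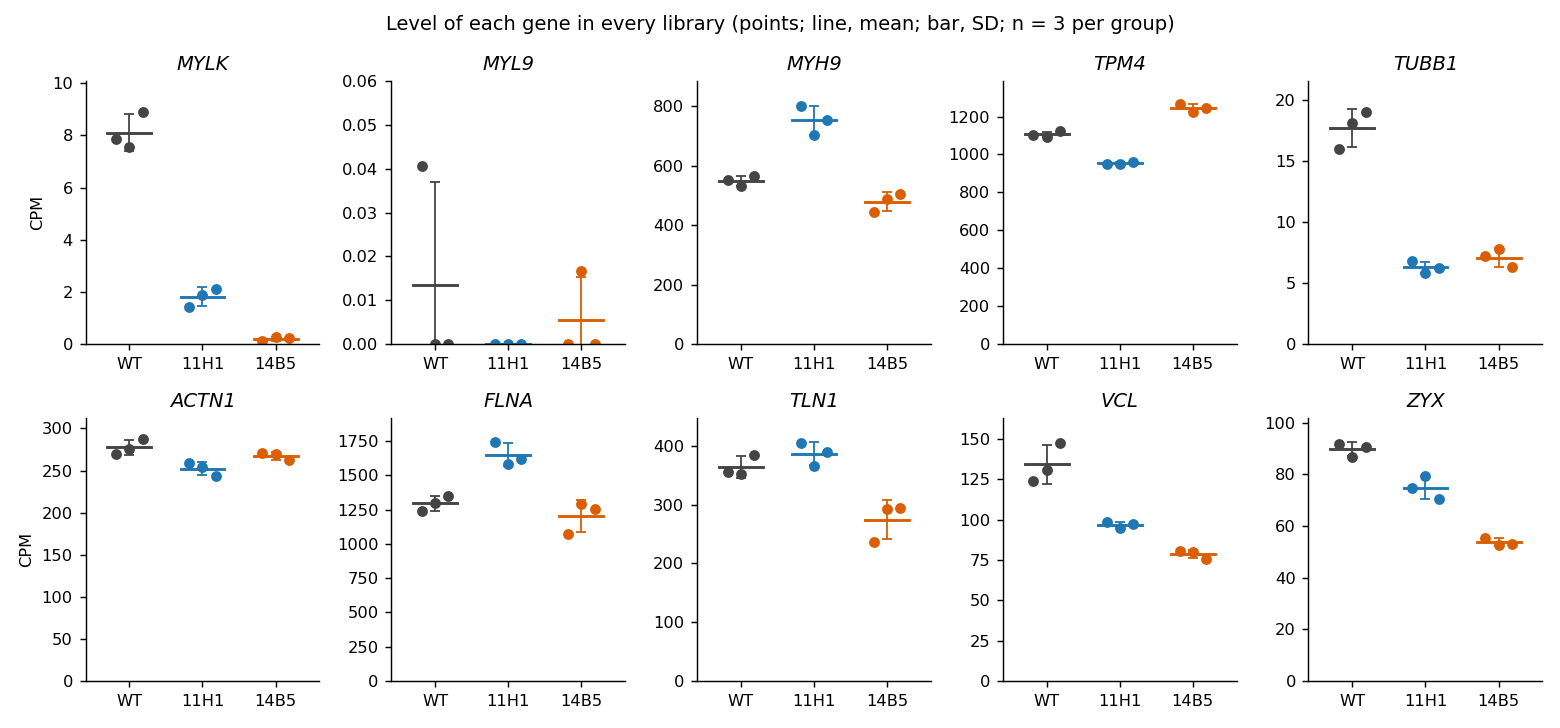
Level in CPM (linear axis from 0, a separate scale for each gene) in every library of WT, 11H1 and 14B5; points are libraries, lines are group means and bars are SD (n = 3). *MYLK* steps down from 8.11 in WT to 1.81 in 11H1 and 0.215 in 14B5, *TUBB1* is at 5.85 to 7.76 in all 6 KO libraries against 15.9 to 19.0 in WT, and *MYL9* stays below 0.05.

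*MYLK* encodes myosin light chain kinase (ENSG00000065534.18; chromosome 3, 123610049 to 123884331, minus strand of GRCh38, GENCODE v29). It was at 7.85, 7.57 and 8.90 CPM in the WT libraries, at 1.41, 1.89 and 2.13 in 11H1 and at 0.135, 0.284 and 0.226 in 14B5. These levels rest on 361 to 386 counts per WT library, 62 to 77 per 11H1 library and 6, 17 and 13 counts in 14B5. The 3 groups do not overlap, and each 14B5 library is below every 11H1 library. The log2FC was −2.19 (SE 0.14, adjusted p = 9.07e-08, edgeR) in 11H1 versus WT, which leaves 21.9% of the WT level, and −5.19 (SE 0.18, adjusted p = 1.29e-08) in 14B5 versus WT, which leaves 2.74%. Set directly against each other, 11H1 was higher than 14B5 by a log2FC of 3.01 (SE 0.28, adjusted p = 2.30e-06). With both clones pooled the log2FC was −3.05 (SE 0.69, adjusted p = 0.00761), a value between 2 clones that differ several-fold; the 2-sided exact permutation test over the 9 libraries, run on each of the 10 genes, gave an unadjusted p = 0.0238. It was −3.68 in a fit of 3 groups and −3.85 in limma-voom, the value farthest from the one given.

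The antisense gene *MYLK-AS1* overlaps 133 of the 22167 exonic bases of *MYLK* on the other strand and was at 0.650 CPM in WT, 0.721 in 11H1 and 0.572 in 14B5, with no call in any comparison; whether the counting used strand is not given in the sources used here. Genes within 5 megabases on either side of *MYLK* did not move with it as a group. Their median log2FC was 0.04 in 11H1 (68 genes, quartiles −0.46 and 0.27) and 0.00 in 14B5 (70 genes, quartiles −0.53 and 0.23). Among the 4 genes of the kinase family, *MYLK* made up 26.5% ± 1.65 (SD, n = 3) of the summed CPM per kb of exon in WT, 5.95% ± 1.40 in 11H1 and 1.02% ± 0.433 in 14B5. *MYLK3*, a kinase best known from heart muscle, made up 42.9% ± 0.785, 61.0% ± 2.81 and 76.8% ± 4.11. These shares depend on the exon lengths used, 22.2 kb for *MYLK* and 9.52 kb for *MYLK3*. By CPM alone *MYLK* was above *MYLK3* in WT (8.11 against 5.65). It was below *MYLK3* in 11H1 (1.81 against 8.02) and in 14B5 (0.215 against 7.16). *MYLK3* was itself higher in both clones, by a log2FC of 0.52 (SE 0.09, adjusted p = 0.000453) in 11H1 and 0.32 (SE 0.10, adjusted p = 0.0180) in 14B5, though all 4 kinase genes stayed below 1 CPM per kb in every library. The other kinases of the family were set beside *MYLK* after their values were seen.

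*MYL9* encodes the regulatory light chain that the kinase acts on in smooth muscle and platelets (ENSG00000101335.10; chromosome 20, 36541484 to 36551447, plus strand). It had 2 counts in WT library 1, 1 count in 14B5 library 2 and 0 counts in the other 7 libraries. Every group is thus at or under the 3 counts that a count of 0 allows, so no fold was computed and no difference was detectable at this depth. The regulatory light chains of these cells came from the paralogs *MYL12A* and *MYL12B*, which held 27.8% and 72.2% of the family's summed CPM per kb in WT. *MYL12A* was lower in 11H1 (log2FC −0.24, adjusted p = 0.000571) and at −0.04 in 14B5 (adjusted p = 0.442). *MYL12B* was lower in 11H1 (log2FC −0.25, adjusted p = 0.000344) and higher in 14B5 (log2FC 0.12, adjusted p = 0.0465, all edgeR).

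*MYH9* encodes the heavy chain of nonmuscle myosin IIA, the main motor of the platelet (ENSG00000100345.21; chromosome 22, 36281277 to 36388067, minus strand). It was at 552, 532 and 565 CPM in WT, at 801, 704 and 752 in 11H1 and at 443, 489 and 505 in 14B5. All 11H1 libraries lie above all WT libraries, and all 14B5 libraries below them. The log2FC was 0.46 (SE 0.06, adjusted p = 1.85e-05) in 11H1 versus WT and −0.22 (SE 0.06, adjusted p = 0.00899) in 14B5 versus WT, and the clones differed from each other by 0.66 (SE 0.06, adjusted p = 1.79e-06, edgeR). Pooled, the opposite moves left a log2FC of 0.16 (95% confidence interval −0.26 to 0.59, adjusted p = 0.550). *MYH9* held 68.4% ± 0.784 of the family's CPM per kb in WT, 70.8% ± 0.403 in 11H1 and 64.9% ± 0.649 in 14B5, with nearly all of the rest from *MYH10*, the heavy chain of myosin IIB. *MYH10* was higher in 11H1 (log2FC 0.29, adjusted p = 0.000611) and at 0.01 in 14B5 (adjusted p = 0.906).

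*TPM4* encodes a short tropomyosin of stress fibers and platelets (ENSG00000167460.17; chromosome 19, 16067021 to 16103005, plus strand), and it followed the reverse order of *MYH9*. It was at 1101, 1094 and 1121 CPM in WT, at 948, 950 and 961 in 11H1 and at 1268, 1226 and 1242 in 14B5. The 3 groups do not overlap, with 14B5 highest and 11H1 lowest. The log2FC was −0.21 (SE 0.04, adjusted p = 0.00108) in 11H1 versus WT, 0.16 (SE 0.04, adjusted p = 0.0128) in 14B5 versus WT and −0.38 (SE 0.04, adjusted p = 2.60e-06) in 11H1 versus 14B5. Pooled, it was −0.01 (95% confidence interval −0.27 to 0.25), with a sign that turned when WT library 3 or any 11H1 library was left out (0.00 to 0.03). *TPM4* counts were not whole numbers in any of the 9 libraries, since reads shared with related sequences were divided. Of the other tropomyosins, *TPM1* was higher in both clones (log2FC 0.46 and 0.59) and *TPM3* was lower in 11H1 (−0.23, adjusted p = 0.00109) and at −0.01 in 14B5 (adjusted p = 0.910).

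*TUBB1* encodes beta1-tubulin (ENSG00000101162.3; chromosome 20, 59019254 to 59026654, plus strand) and was, of the 4 genes lower in both clones, the one with the closest values in the clones. It was at 15.9, 18.1 and 19.0 CPM in WT, at 6.79, 5.85 and 6.24 in 11H1 and at 7.25, 7.76 and 6.28 in 14B5. The highest KO library is far below the lowest WT library, and the libraries of the 2 clones overlap. The log2FC was −1.47 (SE 0.09, adjusted p = 6.59e-08) in 11H1 versus WT, −1.33 (SE 0.10, adjusted p = 2.00e-06) in 14B5 versus WT and −1.40 (SE 0.10, adjusted p = 8.13e-06) in KO versus WT, which leaves 37.9% of the WT level. The exact permutation test gave an unadjusted p = 0.0119, the smallest that 6 libraries against 3 allow. Between the clones the log2FC was −0.16 (95% confidence interval −0.38 to 0.06, adjusted p = 0.181), and without 14B5 library 3 it was −0.24 (adjusted p = 0.0460), past the threshold.

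*TUBB1* was a minor tubulin in these cells. It held 0.606% ± 0.0538 of the CPM per kb of 8 beta-tubulin genes in WT, 0.201% ± 0.0168 in 11H1 and 0.197% ± 0.0201 in 14B5, while the widely used *TUBB* held 68.1% ± 1.31 in WT. *TUBB* was at a log2FC of 0.09 in 11H1 (adjusted p = 0.0969) and was higher in 14B5 (0.29, adjusted p = 0.000440). On the opposite strand *ATP5F1E*, a subunit of ATP synthase, covers 1188 of the 3496 exonic bases of *TUBB1* at a mean of 195 CPM in WT, 183 in 11H1 and 204 in 14B5. That gene passed the threshold in no comparison (log2FC −0.09 in 11H1 and 0.05 in 14B5), and how its reads were kept apart from those of *TUBB1* is not known without the strand setting. The *TUBB1* counts were whole numbers in every library. Genes within 5 megabases of *TUBB1* had a median log2FC of 0.24 in 11H1 (83 genes) and 0.00 in 14B5 (82 genes).

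**Figure D2:**
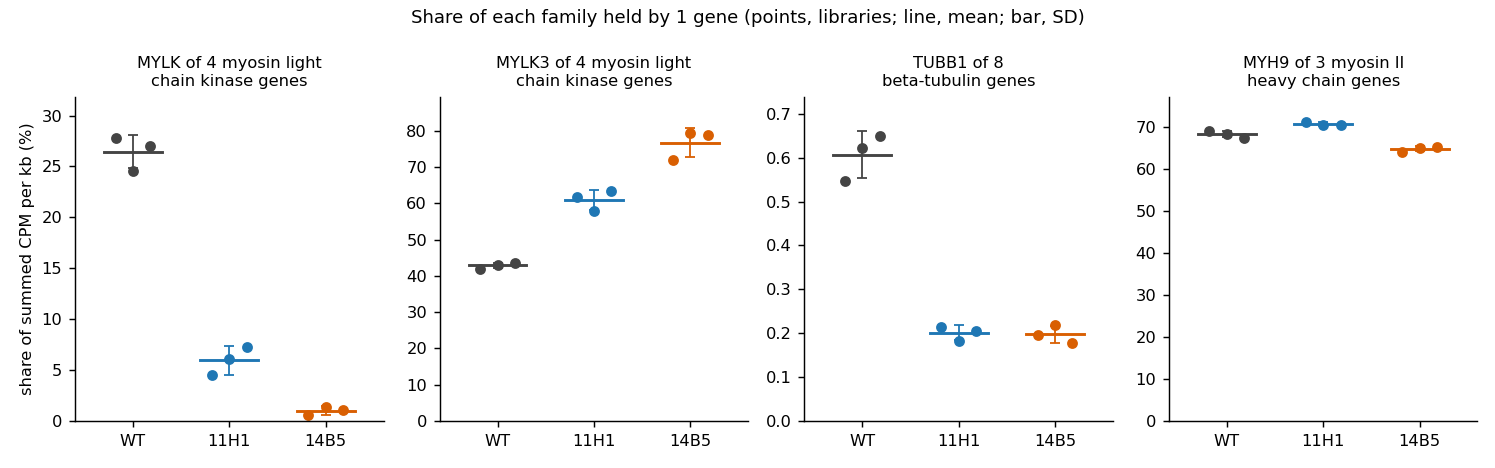
Share (%) of the summed CPM per kb of exon of a gene family held by 1 gene, in every library of WT, 11H1 and 14B5 (linear axis from 0; points are libraries, lines are means and bars are SD, n = 3). *MYLK* falls from 26.5% in WT to 5.95% and 1.02% while *MYLK3* goes from 42.9% to 61.0% and 76.8%, *TUBB1* goes from 0.606% to 0.201% and 0.197%, and *MYH9* stays between 64.2% and 71.3% in every library.

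*ACTN1* encodes alpha-actinin-1, which bundles actin filaments (ENSG00000072110.13; chromosome 14, 68874143 to 68979440, minus strand). It was at 270, 275 and 287 CPM in WT, at 259, 254 and 243 in 11H1 and at 270, 270 and 262 in 14B5. Its range over all 9 libraries was the narrowest of the 9 genes tested, relative to its level. The log2FC was −0.13 in 11H1 (SE 0.05, adjusted p = 0.0283, edgeR), a call that was lost without 11H1 library 2 (adjusted p = 0.0763) or 11H1 library 3 (adjusted p = 0.124), and −0.07 in 14B5 (95% confidence interval −0.17 to 0.03, adjusted p = 0.220). *ACTN4*, the more abundant paralog with 81.3% of the pair's CPM per kb in WT, was at −0.03 in 11H1 (adjusted p = 0.643) and 0.12 in 14B5 (adjusted p = 0.0613).

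*FLNA* encodes filamin A, the crosslinker that also anchors the von Willebrand factor receptor of the platelet (ENSG00000196924.17; chromosome X, 154348524 to 154374638, minus strand). It was at 1238, 1296 and 1349 CPM in WT, at 1744, 1584 and 1619 in 11H1 and at 1069, 1290 and 1255 in 14B5. All 11H1 libraries lie above the other 6, while WT and 14B5 overlap. The log2FC was 0.36 (SE 0.05, adjusted p = 0.000117) in 11H1 versus WT, −0.12 (95% confidence interval −0.28 to 0.04, adjusted p = 0.179) in 14B5 versus WT and 0.46 (SE 0.06, adjusted p = 6.48e-05) in 11H1 versus 14B5.

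*TLN1* encodes talin-1, which links integrin tails to actin (ENSG00000137076.21; chromosome 9, 35696948 to 35732395, minus strand). It was at 355, 352 and 385 CPM in WT, at 404, 366 and 390 in 11H1 and at 236, 292 and 295 in 14B5. All 14B5 libraries lie below the other 6, while WT and 11H1 overlap. The log2FC was −0.42 (SE 0.08, adjusted p = 0.00146) in 14B5 versus WT and 0.10 (95% confidence interval −0.02 to 0.21, adjusted p = 0.144) in 11H1 versus WT, where it passed the threshold without WT library 3 (0.13, adjusted p = 0.0320). Between the clones it was 0.50 (SE 0.08, adjusted p = 0.000109). *TLN2* made up under 1% of the talin CPM per kb in every library.

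*VCL* encodes vinculin, which binds talin and actin at the contact (ENSG00000035403.17; chromosome 10, 73995193 to 74121363, plus strand). It was at 124, 131 and 148 CPM in WT, at 98.7, 94.7 and 97.1 in 11H1 and at 80.5, 80.2 and 75.7 in 14B5. The 3 groups do not overlap, and both clones are below WT. The log2FC was −0.46 (SE 0.06, adjusted p = 3.16e-05) in 11H1 versus WT, −0.78 (SE 0.06, adjusted p = 4.48e-06) in 14B5 versus WT and −0.61 (SE 0.10, adjusted p = 0.00122) in KO versus WT, which leaves 65.4% of the WT level. The exact permutation test gave an unadjusted p = 0.0119, and the clones differed from each other by 0.30 (SE 0.04, adjusted p = 8.60e-05, edgeR). On the other strand *AP3M1*, an adaptor of vesicle sorting, covers 1109 of the 9992 exonic bases of *VCL*. It was at a log2FC of 0.10 in 11H1 (adjusted p = 0.113) and was higher in 14B5 (0.22, adjusted p = 0.0199), the reverse of *VCL*. The median log2FC of genes within 5 megabases of *VCL* was −0.02 in 11H1 (81 genes) and −0.08 in 14B5 (80 genes).

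*ZYX* encodes zyxin, which is recruited to strained actin fibers (ENSG00000159840.16; chromosome 7, 143381080 to 143391111, plus strand). It was at 91.7, 86.7 and 90.7 CPM in WT, at 74.7, 79.4 and 70.5 in 11H1 and at 55.4, 52.5 and 53.1 in 14B5. The order WT, 11H1, 14B5 is that of *VCL*, again with no overlap. The log2FC was −0.25 (SE 0.05, adjusted p = 0.00106) in 11H1 versus WT, −0.76 (SE 0.05, adjusted p = 6.24e-07) in 14B5 versus WT and 0.49 (SE 0.05, adjusted p = 6.55e-06) in 11H1 versus 14B5. In KO versus WT it was −0.48 (SE 0.14, adjusted p = 0.0248), a call that was lost when WT library 1, 2 or 3 was left out (adjusted p = 0.0867, 0.0667 and 0.0759). Around *ZYX*, genes within 5 megabases had a median log2FC of −0.09 in 11H1 (37 genes) and −0.18 in 14B5 (40 genes). The part of this shift in the fall of *ZYX* was not tested.

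**Figure D3:**
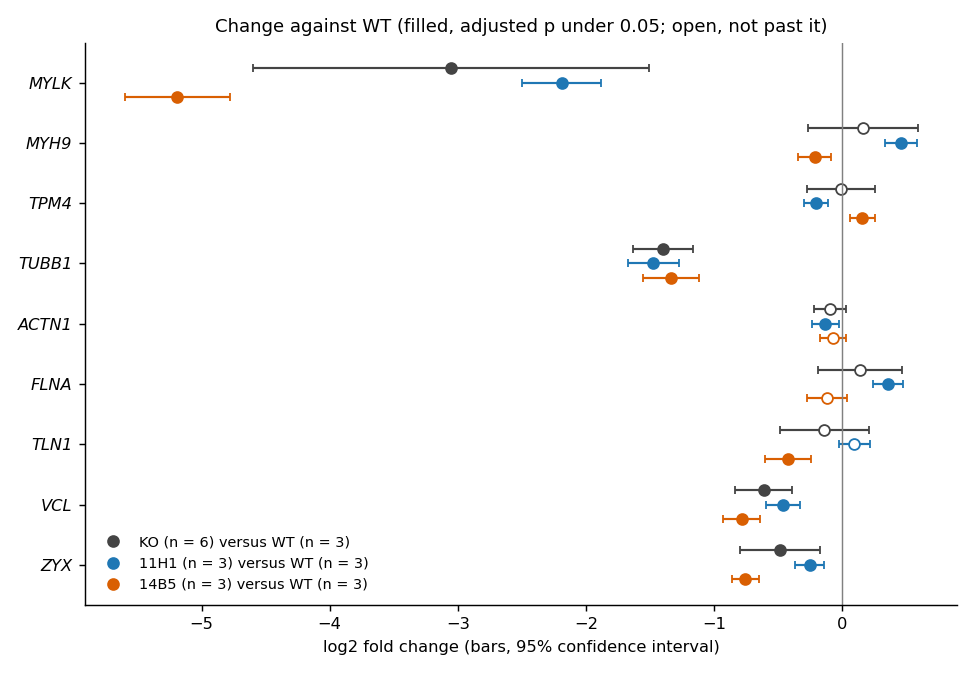
The log2FC against WT (x axis) of the 9 genes tested (y axis) for both clones pooled, 11H1 and 14B5; bars are 95% confidence intervals, filled points have an adjusted p under 0.05 and open points do not. *MYLK* is at −2.19 in 11H1, −5.19 in 14B5 and −3.05 pooled, *TUBB1* lies between −1.47 and −1.33 in all 3 comparisons, and the values of the other 7 genes lie between −0.78 and 0.46.

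In the direct comparison of 11H1 with 14B5, 6 of the 9 genes were higher in 11H1 (*MYLK*, *MYH9*, *FLNA*, *TLN1*, *VCL* and *ZYX*) and *TPM4* was lower, where 63.7% of 16352 genes passed the threshold, 31.6% higher and 32.1% lower. The median log2FC of the 9 was 0.46 and that of all genes was −0.00. *TUBB1* and *ACTN1* were the members not past the threshold. The order 11H1, WT, 14B5 was thus the order of the group means of *MYH9*, *FLNA* and *TLN1*, and the order WT, 11H1, 14B5 that of *MYLK*, *VCL* and *ZYX*. For *FLNA* the neighbors WT and 14B5 did not differ beyond their spread, and for *TLN1* this held for 11H1 and WT.

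For each member, the nearest of 87 other genes (those of the pathway lists and the transcription factors described further on) was found by the distance between the 3 centered group means of log2 CPM, as a description over 3 groups. The nearest to *MYH9* and to *FLNA* was *SRC*, a kinase that acts downstream of integrins, at distances of 0.0152 and 0.126. *SRC* was higher in 11H1 (log2FC 0.44) and lower in 14B5 (−0.22), as *MYH9* was. The nearest to *TPM4* was *TAGLN2*, an actin-binding protein, at 0.00295, with a log2FC of −0.21 in 11H1 and 0.16 in 14B5. The nearest to *TUBB1* was *FERMT2* at 0.255, to *TLN1* *LPP* at 0.0546, to *ACTN1* *CSRP1* at 0.0226, to *VCL* *DIAPH1* at 0.142 and to *ZYX* *SPTAN1* at 0.175. None of the 87 was near *MYLK*, since *CALD1*, the nearest, was at 2.11. The 14 megakaryocyte markers were not among the 87 and were measured in the same way after their values were seen. The marker nearest to *MYLK* was *GP9*, a subunit of the von Willebrand factor receptor, at 0.350. *GP9* was at 22.2 CPM in WT, 4.27 in 11H1 and 0.804 in 14B5, with a log2FC of −2.39 (SE 0.10, adjusted p = 3.36e-09) in 11H1 versus WT and −4.80 (SE 0.15, adjusted p = 7.42e-09, edgeR) in 14B5 versus WT.

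The wider machinery was described through 4 lists of related genes. In KO versus WT, 32.0% of the 17080 genes tested passed the threshold, 14.3% higher and 17.7% lower. Of other actomyosin genes, 1 was higher and 2 were lower in KO versus WT among 20 tested, namely *TPM1* (0.53, SE 0.06, adjusted p = 0.000145), *ARHGEF1*, an activator of RhoA (−0.20, SE 0.07, adjusted p = 0.04996), and *CALD1*, which encodes the actin-binding caldesmon and was at 0.446 CPM in WT and 0.0325 and 0.0318 CPM in the clones, below the level set for naming a gene and named after its values were seen. Of other tubulin genes, 4 were higher and 2 lower among 13, with *TUBB2B* at −0.96 (SE 0.12, adjusted p = 0.000220), *TUBB2A* at 0.55 (SE 0.10, adjusted p = 0.00192) and *TUBB3* at 0.41 (SE 0.08, adjusted p = 0.00253); *TUBB2A* and *TUBB2B* are near copies whose reads the counting may split. The medians of these 2 lists were −0.08 and 0.14, and the shares called were 15% and 46.2%.

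Focal contact and actin crosslinking genes other than the members had 1 higher and 6 lower among 22, with a median of −0.13. The share called was 31.8% for this list and 30.4% for the actin turnover list below, close to the 32.0% of all genes tested. The largest falls were those of *FERMT2*, the integrin activator kindlin-2 (−1.10, SE 0.08, adjusted p = 6.67e-06), *LIMS1*, a partner of integrin-linked kinase (−0.89, SE 0.09, adjusted p = 4.04e-05), and *TES*, a zyxin-binding protein (−0.81, SE 0.14, adjusted p = 0.00146). All 3 were lower in each clone alone, with log2FC values in 11H1 and 14B5 of −1.14 and −1.07 for *FERMT2*, −0.98 and −0.82 for *LIMS1*, and −0.59 and −1.06 for *TES*. Genes of actin turnover and the membrane skeleton had 0 higher and 7 lower among 23, with a median of −0.08, led by *SPTBN1*, a spectrin (−1.44, SE 0.27, adjusted p = 0.00266), *ACTR3*, of the Arp2/3 complex (−0.72, SE 0.08, adjusted p = 0.000155), and *TMSB4X*, which sequesters actin monomers (−0.63, SE 0.10, adjusted p = 0.000846, all edgeR).

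Within single clones the counts of the 4 lists stand beside large shares of all genes. In 11H1 versus WT, where 31.8% of all genes were higher and 32.8% lower, actomyosin genes had 3 higher and 10 lower of 19, tubulins 4 and 5 of 13, contacts 5 and 12 of 22, and actin turnover 1 and 15 of 23. In 14B5 versus WT, where 24.9% were higher and 28.7% lower, actomyosin genes had 3 and 5 of 20, tubulins 7 and 2 of 13, contacts 3 and 11 of 22, and actin turnover 5 and 12 of 23. In 11H1 versus 14B5, where 31.6% were higher and 32.1% lower, they had 6 and 11 of 19, 0 and 10 of 13, 7 and 8 of 22, and 8 and 12 of 23.

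**Figure D4:**
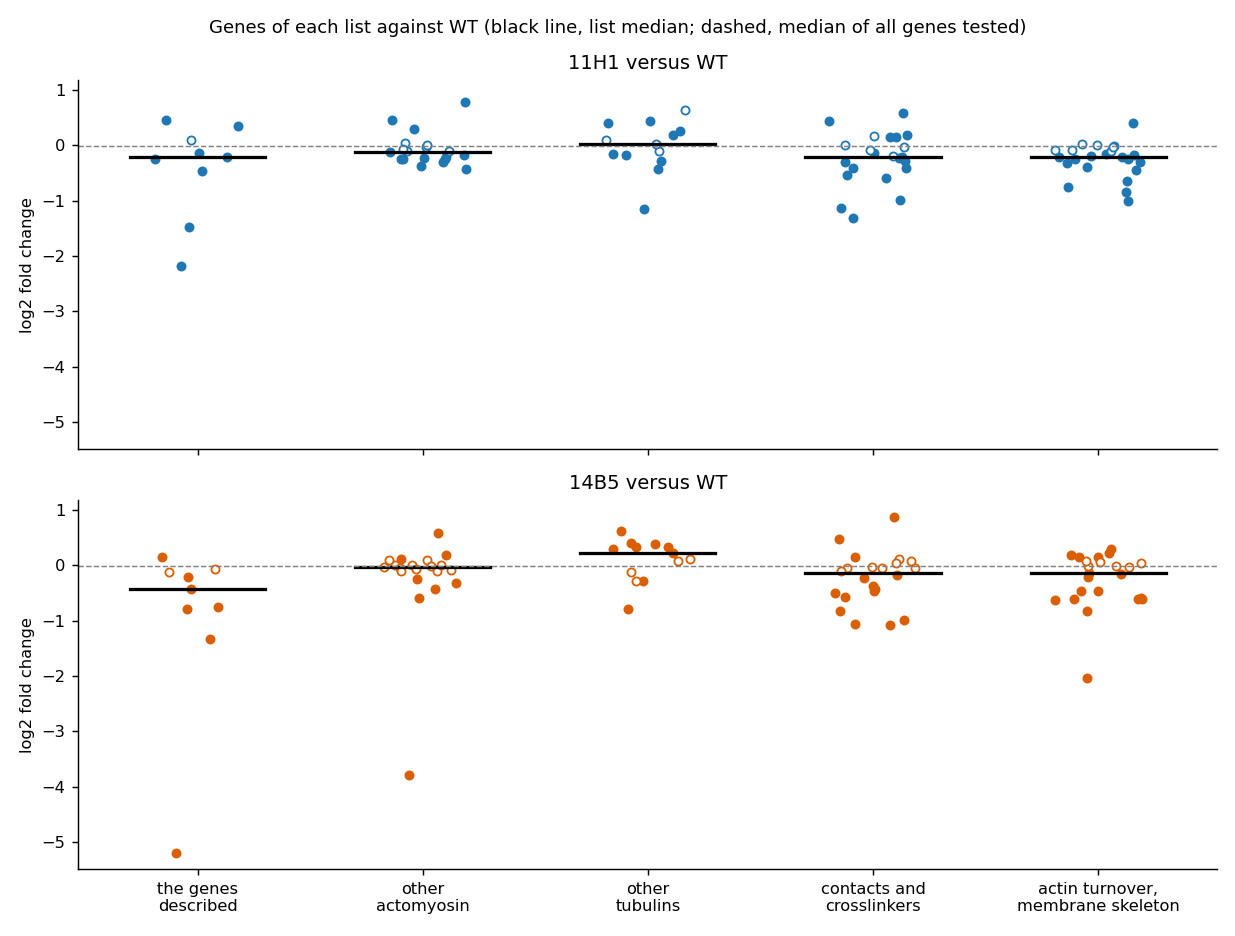
The log2FC against WT of each gene tested in the list of 10 and in 4 lists of related genes (x axis), for 11H1 (top) and 14B5 (bottom); filled points have an adjusted p under 0.05, black lines are list medians and the dashed line is the median of all genes tested. List medians lie between −0.42 and 0.23 in both clones, and the point farthest down in 14B5 is *MYLK* at −5.19.

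The transcription factors known for acting on these genes did not move as one. *SRF* was higher in KO versus WT by a log2FC of 0.40 (SE 0.05, adjusted p = 0.000136), with 0.38 in 11H1 and 0.41 in 14B5, and its cofactor *MRTFB* by 0.50 (SE 0.14, adjusted p = 0.0234), with 0.72 and 0.24. The cofactor *MRTFA* was at −0.26 (adjusted p = 0.0696), with −0.10 in 11H1 (adjusted p = 0.0872) and a fall to −0.44 in 14B5 (adjusted p = 2.77e-05). *FLI1*, an activator of late megakaryocyte genes, was lower by −0.85 (SE 0.13, adjusted p = 0.000789), with −0.64 in 11H1 and −1.11 in 14B5. *NFE2* was at 0.05, *RUNX1* at 0.19 and *GATA1* at −0.07 in KO versus WT, none past the threshold (adjusted p = 0.718, 0.148 and 0.591, edgeR). By clone, *NFE2* was at −0.10 in 11H1 (adjusted p = 0.0870) and higher in 14B5 (0.18, adjusted p = 0.0100), *RUNX1* was higher in 11H1 (0.33, adjusted p = 6.94e-05) and at 0.04 in 14B5 (adjusted p = 0.633), and *GATA1* was lower in 11H1 (−0.18, adjusted p = 0.0104) and at 0.03 in 14B5 (adjusted p = 0.611).

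Since SRF is known to act on genes of this kind, the 250 bases before each start that RefSeq gives (GRCh38.p14) were searched on both strands for the CArG box. Of the 9 members matched (*MYL9* was not), 4 held one, as did 394 of 27305 genes (1.44%) in the same table. *ACTN1* has 4 starts and *TPM4* 3, each of which was searched, so these genes had more chances. In both genes the box was found before only 1 of these starts. The stretches are shown 5′ to 3′ on the strand of the gene with the CArG box in capitals, to set side by side the elements of genes that moved differently.
MYLK: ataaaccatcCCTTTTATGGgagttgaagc
FLNA: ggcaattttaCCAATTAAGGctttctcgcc
TPM4: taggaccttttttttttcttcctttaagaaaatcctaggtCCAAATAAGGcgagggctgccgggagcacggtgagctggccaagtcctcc
ACTN1: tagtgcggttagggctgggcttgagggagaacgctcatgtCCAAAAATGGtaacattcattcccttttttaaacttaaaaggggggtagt

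The *MYLK* stretch is chr3:123620623-123620652 and its box lies 94 to 85 bases before a start inside the gene and 263783 bases from its 5′ end, the start for *MYLK* in the table used. All 250 bases searched before that start lie in GENCODE exons, and no window at the 5′ end of *MYLK* was searched. Counts are per gene and do not show which start was used. The *FLNA* stretch is chrX:154374709-154374738, with the box also 94 to 85 bases before the start. The *TPM4* stretch is chr19:16067325-16067414 and the *ACTN1* stretch chr14:68977688-68977777, with boxes 173 to 164 and 171 to 162 bases before their starts. These starts lie 517 (*TPM4*) and 1874 (*ACTN1*) bases from the 5′ end of the gene, and that of *FLNA* lies 4 bases from it. The 4 genes with a box took different courses: *MYLK* fell in both clones, *FLNA* rose in 11H1, *TPM4* fell in 11H1 and rose in 14B5, and *ACTN1* stayed within 0.13 of WT on the log2 scale in both. *TUBB1*, *VCL* and *ZYX*, the other genes lower in both clones, held no match in these windows. The part of SRF or of these boxes in the changes was not tested. The core TGANTCA of the NF-E2 element (found in 8.06% of genes) and the GATA sequence AGATAA (11.1%) had no match in any of the 9, which says only that these letters are not in the windows.

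Marker genes of the lineage were lower in the clones as well. The summed level of 14 megakaryocyte markers was 1924 to 1932 CPM in WT, 1409 to 1481 CPM in 11H1 and 1427 to 1487 CPM in 14B5. In KO versus WT 10 of the 13 tested were lower with none higher (median log2FC −1.16), where 17.7% of all genes were lower. The sum rests mostly on *ITGA2B*, *NFE2* and *GATA1* and does not show how the clones differed. In 11H1 versus 14B5, 8 of the 11 markers tested were higher and 2 lower, where 31.6% of all genes tested were higher and 32.1% lower. By CPM, *NFE2* (328 in 11H1, 404 in 14B5) and *GATA1* (240 and 283) were lower in 11H1. *ITGB3* was at 54.9 CPM in WT, 20.3 in 11H1 and 5.77 in 14B5, and *GP1BA* at 43.8, 27.3 and 12.1. This order of the groups is that of *MYLK*, *VCL* and *ZYX*. *ITGA2B*, the integrin chain that defines the lineage, was at 919.6 CPM in WT, whereas the platelet chemokine genes *PF4* and *PPBP* and the granule gene *VWF* were under 1 CPM in every group. The erythroid list, mostly *HBG2*, was at 13703 to 15646 CPM in WT, 13011 to 14123 in 11H1 and 15107 to 16561 in 14B5. The sums of the other lists in WT, 11H1 and 14B5 were 264 to 271, 128 to 137 and 133 to 148 CPM for myelomonocytic markers (*S100A8* and *S100A9* at most 3 counts), 39.7 to 44.0, 30.5 to 30.9 and 29.5 to 32.9 for lymphoid markers, 165.7 to 198, 89.3 to 94.1 and 85.8 to 92.5 for endothelial markers (*TEK* and *CLDN5* at most 3 counts), and 105 to 111, 109 to 116 and 123 to 128 for smooth muscle and fibroblast markers (*COL3A1* and *DCN* at most 3 counts). In bulk RNA, fewer cells that express a gene and less RNA of it per cell cannot be told apart, and the part of these markers in the falls of *MYLK*, *TUBB1*, *VCL* and *ZYX* was not tested.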

How the data were processed

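RNA of 9 SET2 libraries was measured by bulk RNA-seq: 3 each of WT cells and of the KO clones 11H1 and 14B5. The labels name a SMARTER mRNA-Seq kit and the study's methods a stranded mRNA kit, so the strand of the counting is not known. Reads were aligned with STAR 2.7.9a to GRCh38 per the submitters' processing notes, which also name Picard and RSEM. The values deposited are RSEM's expected counts for each gene, which share out reads with several matches. They were not scaled or filtered. Spike-in controls (92 of 60754 rows) were left out. Library totals were 32347779 to 60272245 expected counts.

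Expected counts were rounded, and each comparison was fitted over all genes with edgeR 4.0.16 in R 4.3.3 (TMM, filterByExpr for the groups compared, quasi-likelihood F test, Benjamini-Hochberg adjustment, threshold 0.05). *MYL9* was removed by the filter in every comparison. KO (n = 6) and each clone were compared with WT, and 11H1 with 14B5. The study used 5 KO libraries and does not say which, so all 6 were used. A 2-sided exact permutation test over all 84 assignments was run for single genes on log2 CPM (prior count 2). CPM used TMM-scaled library sizes, and CPM per kb the summed exon length of GENCODE v29, which matched 58587 of the genes (96.6%) by identifier without version; these lengths add up exons of all transcripts, so shares of families are approximate. Promoter windows came from RefSeq starts.

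The 10 genes and all lists were chosen with earlier results of these data known. Every member is named, every transcription factor, and of each pathway list the 3 largest changes past the threshold in KO versus WT with a mean of at least 1 CPM. A gene that was to be set beside a member is not reported here. As alternatives, size factors and the Wald test of DESeq2 1.42.0, limma-voom (limma 3.58.1) on unrounded values, no filter, the replicate number as a block, 1 fit of 3 groups, protein-coding genes only, and each library left out were tried. Steps were tested on simulated counts.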

Additional observations from a re-analysis of the deposited data

Results flagged for a closer look

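For 7 of the 10 genes the change against WT differed between the clones when 11H1 was tested directly against 14B5 (edgeR, adjusted over 16352 genes, of which 63.7% passed). The log2FC of 11H1 over 14B5 was 3.01 for *MYLK*, 0.66 for *MYH9*, 0.46 for *FLNA*, 0.50 for *TLN1*, 0.30 for *VCL*, 0.49 for *ZYX* and −0.38 for *TPM4*. *MYLK*, *VCL* and *ZYX* were lower than WT in both clones by different amounts, *MYH9* and *TPM4* were called in opposite directions, and *FLNA* and *TLN1* were called in 1 clone and not in the other.

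Among the 6 KO libraries, 14B5 library 2 stood apart for *MYL9*, with the gap to the next library equal to the whole range (a ratio of 1). The value rests on 1 count against 0 in the other 5 libraries, and with a single count the ratio can take no other value.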

How the results depend on the processing

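The alternatives were run for the 9 members tested and for the count over all genes, not for the other genes named. Every call of a member kept its direction under each alternative, and the number of members past the threshold stayed within 1.5 times of the value given. Leaving out 1 library at a time gave 3 to 4 of these genes in KO versus WT, 7 to 9 in 11H1 versus WT, 7 to 7 in 14B5 versus WT and 7 to 8 in 11H1 versus 14B5, and 3677 to 5531, 9685 to 11091, 7597 to 9040 and 9193 to 10204 of all genes. One fit of 3 groups raised the calls among all genes in KO versus WT to 10245, a fit whose spread comes from within the clones, and brought *MYH9* (adjusted p = 0.0454) and *ACTN1* (adjusted p = 0.0397, edgeR) past the threshold there. The uncalled *TPM4* value in KO versus WT ran from −0.053 to 0.033 with 1 library left out, and its sign turned without WT library 3 (0.00) and without 11H1 library 1 (0.03), 2 (0.03) or 3 (0.02). With protein-coding genes only, *ACTN1* in 11H1 lost its call (adjusted p = 0.0529), and the cause was not tested. Replicate numbers are shared between groups, but deviations of same-numbered libraries correlated by only −0.15 to 0.06 over 9 pairs, so the numbers were not taken to pair the libraries. With the replicate number as a block, *ZYX* in KO versus WT (−0.48, adjusted p = 0.0648) and *TPM4* in 14B5 (0.16, adjusted p = 0.0638) were no longer past the threshold, and no other call of these genes changed. Depth limits *MYL9*, at 0 to 2 counts, and *MYLK* in 14B5, at 6 to 17 counts per library.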
